A study of Populus alba x Populus glandulosa with 12 samples.

Results

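The WHY1 name in the KEGG orthology (KO) column of the deposited table is carried by 3 of 85392 gene models of 84K poplar, and these 3 genes are described here. They are Pag.B08G000961.v3.1, Pag.A08G001025.v3.1 and Pag.B10G000854.v3.1, and each was found by an exact match to an entry of that column. The name was chosen by measured level: 1 of the copies, Pag.B08G000961.v3.1, had the highest FPKM of all gene models on days 6 and 9 of drought. Its levels on those days are therefore a description and carry no test. The tree is the wild-type hybrid of Populus alba and Populus glandulosa known as 84K, and the RNA came from leaf. There are 3 libraries on each of days 0, 3, 6 and 9 of drought, 12 in all, and day 0 is the control, labelled CK. All 4 groups carry the drought label, and day 3, day 6 and day 9 have no undroughted libraries beside them, so drought and time cannot be told apart. Each day has a batch label of its own, and effects of batch and of day cannot be told apart either. The series text calls the replicates biological, nothing states that they are separate plants, and p-values measure the spread between these libraries only. The sources used here do not give plant ages or soil water.

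WHIRLY proteins are plant proteins that bind single-stranded DNA, and WHY1 is the KO name of one of them. In Arabidopsis, WHIRLY1 and WHIRLY3 go to plastids and WHIRLY2 goes to mitochondria, where they bind organelle DNA and limit rearrangement between short repeats. WHIRLY1 was first described in potato as a factor that binds the promoter of a pathogenesis-related gene, and it has also been found in the nucleus and at telomeres. The tables hold no protein description for the 3 models. Their gene ontology (GO) terms, as deposited, are defense response, regulation of transcription, single-stranded DNA binding and oxidoreductase activity. The last of these is not a known activity of WHIRLY proteins, and the name was not checked against a protein sequence here. The identifiers place 1 copy each on chromosome 8 of the A and B subgenomes and the remaining one on chromosome 10 of the B subgenome.

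Values are FPKM, fragments scaled by transcript length and by the fragments mapped in the library, as deposited by the authors, so they are relative within a library and comparable between genes per length. Depth cannot be read from them, and no counting interval is given. In leaf RNA as a whole, fewer cells of a type and less RNA per cell cannot be told apart. The FPKM of a library summed to between 684857 and 732119, and 34492 to 38140 gene models reached 1 FPKM. Libraries of the same day correlated at r between 0.969 and 0.976 over gene models, and libraries of different days at r between 0.632 and 0.966. The leaf label fits the markers of photosynthetic leaf: on day 0 the highest of 8 genes named for the small subunit of RuBisCO, Pag.B17G000435.v3.1, had 2299.9 ± 16.7 FPKM, and the highest of 13 genes named LHCB1, Pag.A05G002416.v3.1, had 1600.4 ± 23.3 FPKM (SD, n = 3).

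The 3 WHY1-named genes did not behave alike. The 2 copies on chromosome 8 rose together on day 3 and stood at 289 to 310.0 times their day 0 level on days 6 and 9. The copy on chromosome 10 rose less on day 3 and had 0.921 to 1.01 times its day 0 level later. On day 3 all 3 copies passed the test against day 0, each of them upwards, where 47.7% of the 40736 gene models tested were called, 22.6% higher and 25.2% lower. A gene was tested if it had at least 1 FPKM in at least 3 libraries, and it was called at an adjusted p under 0.05 in a limma fit of log2(FPKM + 1) over all 12 libraries.

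Pag.B08G000961.v3.1 had 44.6, 50.0 and 45.1 FPKM in the 3 libraries of day 0. Its level was 698, 699 and 711 FPKM on day 3. On day 6 the libraries held 14628, 14262 and 14415 FPKM, and on day 9 they held 14473, 13314 and 13843 FPKM. The libraries of days 0, 3 and 6 did not overlap, and the ranges of days 9 and 6 did. Separation was common: 57.4% of all genes tested had no overlap between days 3 and 0, 79.4% between days 6 and 0, and 75.1% between days 6 and 3. The day means were 46.6 ± 3.00 FPKM on day 0, then 703 ± 7.22 on day 3, 14435 ± 184 on day 6 and 13877 ± 579.8 on day 9 (SD, n = 3 each). Day 3 was 15.1-fold above day 0, a log2 change of 3.89 ± 0.04 (SE) with an adjusted p of 9.27e-14 in limma. Over 21 other settings of the fit that change stayed between 3.78 and 3.94, with adjusted p-values between 9.53e-15 and 1.16e-08.

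**Figure D1:**
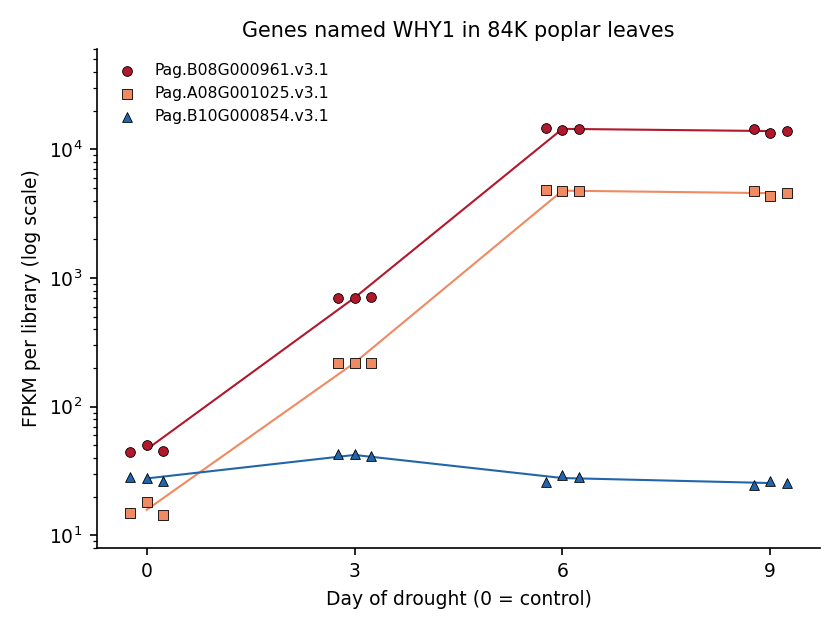
FPKM of the 3 WHY1-named genes in each of the 12 libraries, on a log axis, against day of drought; points are libraries and lines join day means. The chromosome 8 copies climb to 14435 and 4777 FPKM on day 6 and stay near there on day 9, while the chromosome 10 copy stays between 24.6 and 42.7 FPKM.

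As a description with no test, the log2 change of Pag.B08G000961.v3.1 was 8.25 on day 6 and 8.19 on day 9, both against day 0. In FPKM this is 310.0-fold on day 6 and 298-fold on day 9. Between day 6 and day 3 the log2 change was 4.36, a 20.5-fold difference, and between day 9 and day 6 it was -0.06. The climb on the log2 scale was thus shared about evenly between the first 3 days and the next 3, while in FPKM the gain against day 0 was 656 by day 3 and 14388 by day 6. Ranked by log2 change against day 0 among all tested genes, this copy took place 54 on day 3, place 7 on day 6 and place 6 on day 9. Ranked by FPKM gained, it took place 24 on day 3 and place 1 on both later days.

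Within libraries, Pag.B08G000961.v3.1 ranked between 2360 and 2725 of all gene models on day 0 and between 62 and 68 on day 3. It was the highest gene model in 6 of 6 libraries on days 6 and 9. Its share of the FPKM sum was 0.00638% on day 0, then 0.0967% on day 3, 2.10% on day 6 and 1.96% on day 9. In each library the next gene model was lower by a factor of 2.11 to 2.13 on day 6 and 1.82 to 1.89 on day 9.

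The gene models around it at the top of the table give the scale of these levels. On days 0 and 3 the highest mean belonged to Pag.A01G004426.v3.1, a model without a KO name whose GO terms are copper and zinc binding, as in metal-binding proteins. It had 6489 ± 13.9 FPKM on day 0, then 8460 ± 444 on day 3, 6791 ± 123 on day 6 and 7488 ± 453 on day 9 (SD, n = 3 each). Pag.B01G004220.v3.1, with the same GO terms, was among the highest 5 on all 4 days. On day 0 the remaining models of the highest 5 had 2362 to 2555 FPKM, and on day 3 they had 3479 to 4159 FPKM. The lipid-transport models Pag.B04G000892.v3.1, with 7233 FPKM on day 9, and Pag.A04G000922.v3.1, with 5173 FPKM on day 9, were the third and the fourth on that day. On day 6 the other WHY1-named copy of chromosome 8 was the fourth by mean level, and on day 9 it was the sixth.

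**Figure D2:**
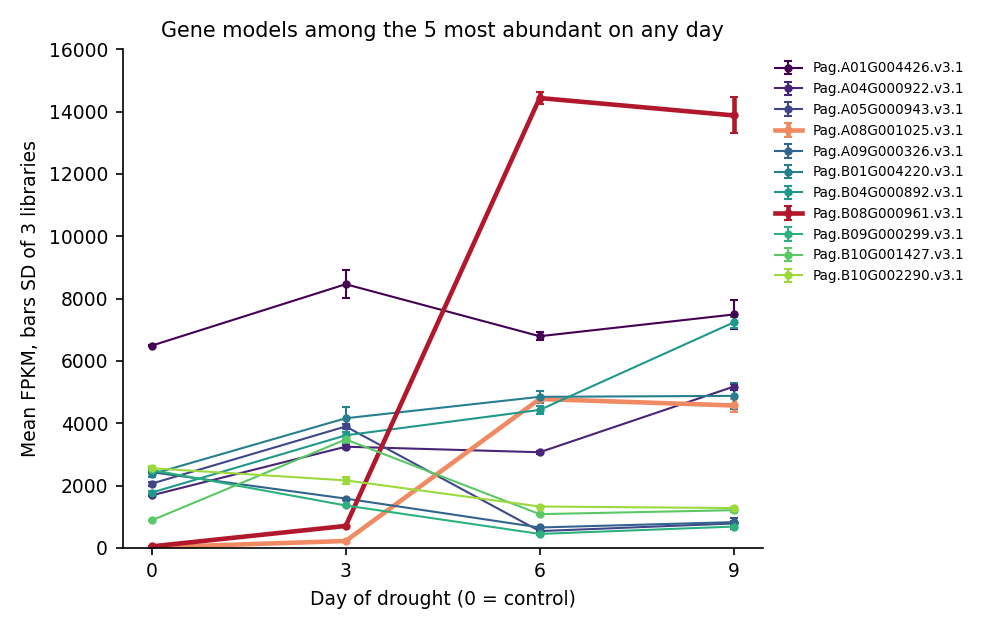
Mean FPKM by day of the gene models that are among the 5 highest on any of the 4 days, with the WHY1-named copies of chromosome 8 drawn thicker; lines join day means and error bars are the SD of 3 libraries. Pag.B08G000961.v3.1 passes Pag.A01G004426.v3.1 between day 3 and day 6, and stands at 13877 FPKM on day 9, against 7488 for that model.

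Pag.A08G001025.v3.1, the copy on chromosome 8 of the A subgenome, had 14.9, 18.1 and 14.4 FPKM on day 0. It had 219, 221 and 218 FPKM on day 3. The libraries of day 6 held 4802, 4749 and 4779 FPKM, and those of day 9 held 4759, 4355 and 4590 FPKM. No library of day 0 came near any library of day 3, and none of day 3 came near those of days 6 and 9, which overlapped. Its mean was 15.8 ± 1.98 FPKM on day 0, then 219 ± 1.22 on day 3, 4777 ± 26.6 on day 6 and 4568 ± 203 on day 9 (SD, n = 3 each).

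In limma, Pag.A08G001025.v3.1 rose on day 3 against day 0 by 3.72 ± 0.07 on the log2 scale, 13.9-fold, with an adjusted p of 2.82e-12. It rose on day 6 against day 0 by 8.16, with an adjusted p of 2.01e-15 in limma, and on day 9 against day 0 by 8.09, with an adjusted p of 2.13e-15 in limma. These are 302.5-fold and 289-fold differences in FPKM. The name was chosen by the level of Pag.B08G000961.v3.1 on these days, and both copies correlated at r = 0.9998. Tests of Pag.A08G001025.v3.1 that hold day 6 or day 9 are therefore no separate support for the rise. Between day 6 and day 3 the log2 change was 4.44, with an adjusted p of 7.13e-13 in limma. Day 9 and day 6 differed by -0.07, which did not pass (adjusted p = 0.529 in limma). On day 6, 76.8% of genes tested were called against day 0, 29.2% higher and 47.6% lower; on day 9 the share was 76.9%, with 30.9% higher and 46.0% lower. A call on these days was thus common. By the size of its log2 change among all genes tested, Pag.A08G001025.v3.1 took place 9 on day 6 and place 7 on day 9. Under median-ratio scaling the split of all called genes moved to 15744 higher and 15193 lower on day 6, against 11885 and 19407 as deposited. On day 9 it moved to 15655 higher and 15380 lower, against 12595 and 18722. That scaling put the median log2 change of all genes tested at 0.01 on day 6, against -0.21 as deposited, and at 0.00 on day 9, against -0.18. All comparisons of Pag.A08G001025.v3.1 kept their direction and their side of the threshold in the 21 other settings.

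The sources used here do not say how reads were divided between near-identical copies, so the split of FPKM between both chromosome 8 copies is uncertain, and their tests are not independent of each other. Taken as deposited, the split hardly moved. The level of Pag.B08G000961.v3.1 was 2.96 ± 0.183 times that of Pag.A08G001025.v3.1 on day 0, then 3.21 ± 0.0483 times on day 3, 3.02 ± 0.0220 times on day 6 and 3.04 ± 0.0210 times on day 9 (SD, n = 3 each). The B copy held 74.7%, 76.2%, 75.1% and 75.2% of the joint level on days 0, 3, 6 and 9. Single libraries lay between 2.77 and 3.14 on day 0 and between 3.17 and 3.26 on day 3. On day 6 they lay between 3.00 and 3.05, and on day 9 between 3.02 and 3.06. Together these 2 copies made up 0.00855% of the FPKM sum on day 0, then 0.127% on day 3, 2.80% on day 6 and 2.61% on day 9.

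**Figure D3:**
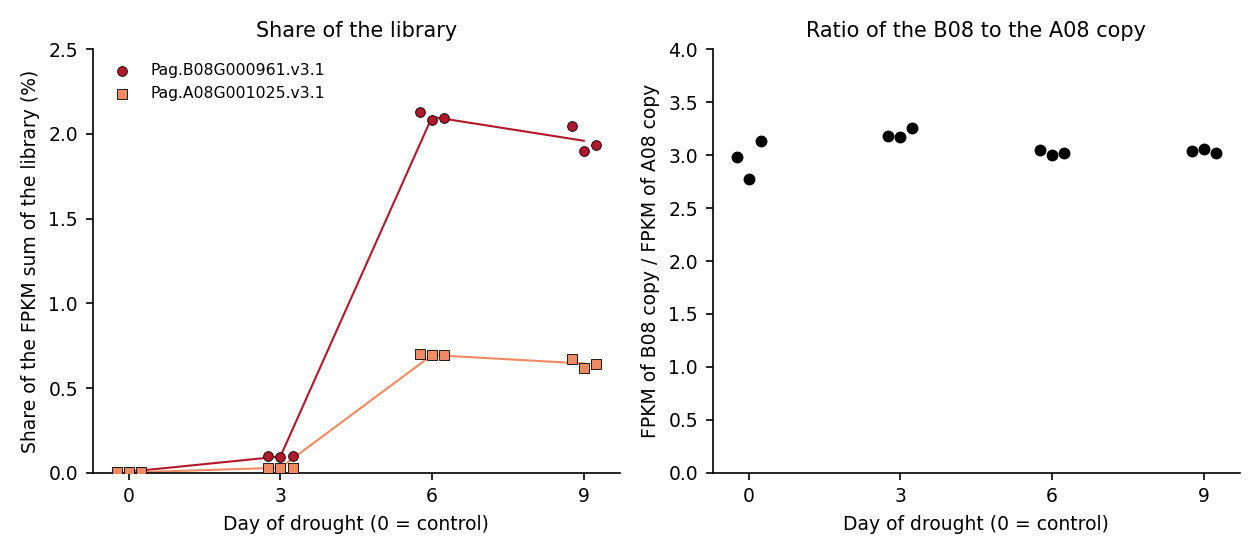
Left, share of the FPKM sum of the library, in percent, held by each chromosome 8 copy by day, with lines through day means; right, ratio of the FPKM of Pag.B08G000961.v3.1 to that of Pag.A08G001025.v3.1; points are libraries. The ratio stays between 2.77 and 3.26 in all 12 libraries while either copy reaches 289 to 310.0 times its day 0 level.

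Pag.B10G000854.v3.1, the copy on chromosome 10, had 28.4, 28.0 and 26.7 FPKM on day 0. On day 3 its libraries held 42.6, 42.7 and 41.2 FPKM. It had 26.2, 29.3 and 28.2 FPKM on day 6, and 24.6, 26.3 and 25.6 FPKM on day 9. The day 3 libraries were above all others, day 6 overlapped day 0, and day 9 lay below day 0. Of all genes tested, 79.2% had no overlap between days 9 and 0, and 75.1% had none between days 9 and 3. The means were 27.7 ± 0.919 FPKM on day 0, then 42.2 ± 0.869 on day 3, 27.9 ± 1.59 on day 6 and 25.5 ± 0.868 on day 9 (SD, n = 3 each).

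Pag.B10G000854.v3.1 rose on day 3 by 0.59 ± 0.05 on the log2 scale against day 0, 1.52-fold, with an adjusted p of 1.20e-06 in limma, and this held in all 21 other settings. It was lower on day 6 than on day 3 by a log2 change of -0.58 (adjusted p = 5.28e-07 in limma) and on day 9 than on day 3 by -0.70 (adjusted p = 9.55e-08 in limma). In these comparisons 46.9% and 44.9% of genes tested were called lower, out of 72.6% and 73.0% called. Day 6 against day 0 gave 0.01 and did not pass (adjusted p = 0.870 in limma), but it was called higher at 0.28 under median-ratio scaling. Day 9 against day 0 gave -0.11 and passed narrowly (adjusted p = 0.0461 in limma). That fall was kept in 8 of 21 other settings, with adjusted p-values between 0.0299 and 0.832, and under median-ratio scaling its value was 0.09. Day 9 against day 6 gave -0.12 and did not pass (adjusted p = 0.0895 in limma), in a comparison where 12.9% of genes were called higher and 8.73% lower, 21.7% in all.

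The order of the 3 genes changed once. On day 0 Pag.B08G000961.v3.1 was 1.68 times Pag.B10G000854.v3.1, which was 1.75 times Pag.A08G001025.v3.1. From day 3 on, the chromosome 10 copy was the lowest. Pag.A08G001025.v3.1 was 5.20 times the chromosome 10 copy on day 3, 171 times on day 6 and 179 times on day 9. On none of the 4 days did the libraries of neighbouring genes in this order overlap. Over the 12 libraries, log2(FPKM + 1) of the chromosome 8 copies correlated at r = 0.9998, and the chromosome 10 copy correlated with them at -0.27 and -0.28. These are descriptions over 4 days that hold 3 libraries each, and libraries of a day are not independent of their day.

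The authors also deposited tables of chosen genes for each day, in which both chromosome 8 copies are listed on all 3 drought days and Pag.B10G000854.v3.1 on none. The tables given for day 3 and day 6 are identical, with 5882 genes, and the table for day 9 holds 18590.

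Further WHIRLY-type models were sought by the 2 GO terms defense response and single-stranded DNA binding, a choice made after values had been seen. These terms together are carried by 7 models: the 3 WHY1-named genes, 2 genes named WHY2, and 2 models of chromosome 10 without a KO name. Both unnamed models also carry the oxidoreductase term, the WHY2-named genes do not, and no other of the 75 models with the single-stranded DNA binding term has it.

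Pag.A10G001098.v3.1, without a KO name, had 19.4, 19.9 and 19.2 FPKM on day 0 and 44.3, 46.7 and 41.0 FPKM on day 3. Its libraries held 63.7, 58.4 and 62.9 FPKM on day 6 and 68.7, 68.6 and 67.4 FPKM on day 9. The level was higher on each later day without overlap, as it was for 37.0% of all genes tested, in either direction, between days 9 and 6. It rose against day 0 by 1.13 on day 3, 1.61 on day 6 and 1.76 on day 9 on the log2 scale, with adjusted p-values of 5.37e-09, 4.40e-11 and 2.20e-11 in limma. Day 9 did not pass against day 6 (adjusted p = 0.0554 in limma). By its identifier it lies on chromosome 10 of the A subgenome, and Pag.B10G000854.v3.1 on that of the B subgenome. The ratio of this A model to that B copy was 0.704 ± 0.0182 on day 0, then 1.04 ± 0.0475 on day 3, 2.22 ± 0.220 on day 6 and 2.68 ± 0.10 on day 9 (SD, n = 3 each). In contrast to the chromosome 8 copies, the ratio on chromosome 10 was higher on each later day, with no overlap between any of the days. On chromosome 8 the ratio of day 3, 3.17 to 3.26, also overlapped that of no other day. How often the ratios of other A and B models separate by day was not counted. That the chromosome 10 models are a copy pair was not checked.

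Pag.A10G000017.v3.1, also without a KO name, had a mean of 65.4 ± 2.04 FPKM on day 0, then 102 ± 1.38 on day 3, 84.8 ± 2.38 on day 6 and 74.4 ± 4.84 on day 9 (SD, n = 3 each). Its GO terms add that of an acyl-carrier-protein reductase, an enzyme of plastid fatty acid synthesis. It rose against day 0 by 0.63 on day 3, 0.37 on day 6 and 0.18 on day 9 on the log2 scale, with adjusted p-values of 5.62e-07, 1.81e-05 and 0.00405 in limma.

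The 2 genes named WHY2, the name of the mitochondrial WHIRLY in Arabidopsis, were low throughout. Pag.A03G001960.v3.1 had 8.12 ± 0.743 FPKM on day 0, then 8.32 ± 0.581 on day 3, 3.99 ± 0.316 on day 6 and 5.13 ± 0.688 on day 9 (SD, n = 3 each). Pag.B03G000695.v3.1 had 6.52 ± 0.411 FPKM on day 0, then 6.22 ± 0.217 on day 3, 3.62 ± 1.09 on day 6 and 4.27 ± 1.06 on day 9 (SD, n = 3 each). Neither passed on day 3. On day 6 both fell against day 0, by 0.87 and 0.73 on the log2 scale (adjusted p = 4.68e-06 and 0.00280 in limma). On day 9 both fell against day 0, by 0.58 and 0.53 (adjusted p = 1.56e-04 and 0.0172 in limma); the second was kept in 18 of 21 other settings. It was -0.35 under median-ratio scaling and did not pass there (adjusted p = 0.0903 in limma), nor without day 0 replicate 2 (adjusted p = 0.0531 in limma) or day 9 replicate 1 (adjusted p = 0.0711 in limma). A fall was common on these days: 47.6% of all genes tested were called lower on day 6 and 46.0% on day 9. The median log2 changes of all genes tested were -0.21 and -0.18.

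**Figure D4:**
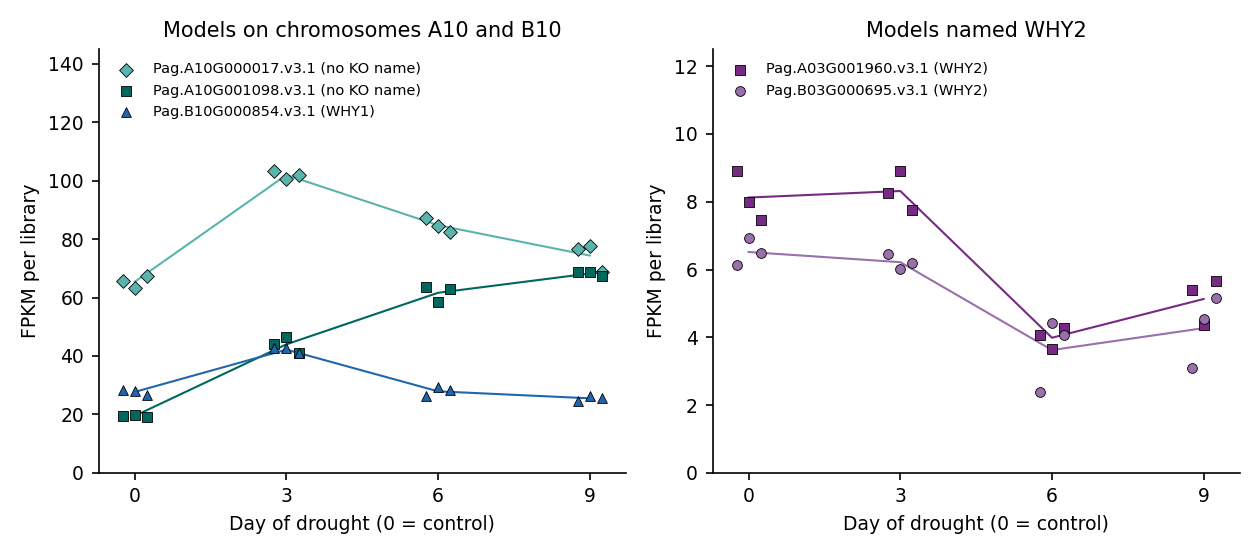
FPKM by day and library of the chromosome 10 WHY1 copy and the 4 other models that share the GO terms defense response and single-stranded DNA binding. Pag.A10G001098.v3.1 is higher on each later day, though day 9 did not pass against day 6, Pag.B10G000854.v3.1 and Pag.A10G000017.v3.1 are highest on day 3, and the WHY2-named genes are lower on days 6 and 9.

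The 68 models that carry the single-stranded DNA binding term outside these 7 were counted too, and 50 of them were tested. On day 3, 7 were called higher and 7 lower, 14.0% each, beside 22.6% and 25.2% of all genes tested. On day 6, 7 were higher and 26 lower, 14.0% and 52.0% beside 29.2% and 47.6%, with a median log2 change of -0.26 against -0.21 over all genes tested. On day 9, 7 were higher and 18 lower, 14.0% and 36.0% beside 30.9% and 46.0%, with a median of -0.14 against -0.18 over all genes tested. Their log2 changes lay between -2.46 and 1.66 on day 6 and between -1.83 and 1.97 on day 9, and the highest mean of any of them on any day was 53.9 FPKM.

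Gene models numbered next to the leading copy had other levels and courses. Pag.B08G000960.v3.1, named RHF, a ubiquitin ligase of the RING type, had 1.5 ± 0.380 FPKM on day 0, then 1.78 ± 0.378 on day 3, 4.37 ± 0.320 on day 6 and 6.18 ± 0.621 on day 9 (SD, n = 3 each). It rose by 1.11 on day 6 and by 1.53 on day 9 on the log2 scale against day 0 (adjusted p = 7.32e-06 and 4.25e-07 in limma) and did not pass on day 3 (adjusted p = 0.346 in limma). On the other side, Pag.B08G000962.v3.1, without a name, had 23.2 ± 1.38 FPKM on day 0, then 21.3 ± 0.388 on day 3, 20.2 ± 0.743 on day 6 and 22.4 ± 1.04 on day 9 (SD, n = 3 each). Pag.B08G000959.v3.1 was listed at 0 in all libraries, and Pag.B08G000963.v3.1, named pel for pectate lyase, had a mean of at most 0.0167 FPKM on any day. A gene named RHF also has the number just before Pag.A08G001025.v3.1 and just before Pag.A10G001098.v3.1, and lies 2 numbers before Pag.B10G000854.v3.1. Coordinates are not used here, so that neighbouring numbers are adjacent genes was not checked.

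Genes whose pattern was most like that of Pag.B08G000961.v3.1 were ranked by Pearson r of log2(FPKM + 1) over the 12 libraries, among 23043 genes with a mean of at least 5 FPKM. High r was common here: 464 genes, 2.01%, had r above 0.99. The WHY1-named genes were left out of this ranking. The highest of the others was Pag.A05G001981.v3.1 with r = 0.9996, whose GO terms are those of a transcription factor of ethylene signalling; its means were 3.74, 24.5, 184.7 and 184.0 FPKM on days 0, 3, 6 and 9. Next came Pag.A01G000814.v3.1, named SWEET for a sugar exporter of the membrane, with r = 0.9995 and means of 0.233, 23.9, 580.4 and 535 FPKM on days 0, 3, 6 and 9. Pag.A15G001279.v3.1, named PP2C for a protein phosphatase of the type that acts in abscisic acid signalling, had r = 0.9995 and means of 0.170, 8.60, 93.2 and 99.1 FPKM on those days.

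The raffinose synthase gene Pag.B06G002363.v3.1, for an enzyme that makes a soluble sugar linked to drought, had r = 0.9994 and means of 32.4, 242, 1768 and 1789.7 FPKM on days 0, 3, 6 and 9. A second SWEET gene, Pag.B01G000717.v3.1, had r = 0.9991 and means of 0.110, 11.3, 270.3 and 278 FPKM. The fifth with a name was Pag.B08G000856.v3.1, named ADI1 for an enzyme of methionine salvage, with r = 0.99895 and means of 87.9, 132, 209.8 and 200.7 FPKM. Of models without a name, Pag.B06G002641.v3.1 had means of 119.8, 378, 1239 and 1289 FPKM and Pag.B03G001431.v3.1, with the GO term of a serine endopeptidase, had 8.30, 33.4, 144 and 146 FPKM. Correlation ignores the size of the change, and the ADI1 gene changed far less than the WHY1 copy.

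The pathways in which WHIRLY proteins are known to act were described with 4 lists of KO names, which together hold 138 genes, 99 of them tested. On day 3, 29 were called higher and 21 lower, 29.3% and 21.2% beside 22.6% and 25.2% of all genes tested. On day 6, 28 were higher and 46 lower, 28.3% and 46.5% beside 29.2% and 47.6%. On day 9, 31 were higher and 44 lower, 31.3% and 44.4% beside 30.9% and 46.0%. The listed genes were thus called on days 6 and 9 at about the shares of all genes.

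The list for organelle genome upkeep and transcription had 18 genes, all tested. On day 3, 5 were called higher and 3 lower, on day 6, 1 was higher and 15 were lower, and on day 9, 2 were higher and 13 were lower. Of all genes tested, 22.6%, 29.2% and 30.9% were called higher on these days, and 25.2%, 47.6% and 46.0% lower. The median log2 change of the list was -0.78 on day 6, against -0.21 over all genes tested, and -0.60 on day 9, against -0.18. Relative to all genes it lay at -0.57 on day 6 and -0.43 on day 9, and at -0.58 and -0.44 under median-ratio scaling. With a pseudocount of 5 these values were -0.30 and -0.22. They were -2.80 and -2.44 with a filter at a mean of 5 FPKM, which left 3 genes of the list. On day 6 all 4 genes named PEO1 for the organelle helicase, all 4 named gyrB for a gyrase subunit and all 4 named polA for organelle DNA polymerase fell. Neither of the 2 genes named gyrA was called on that day. Of the genes named rpoD, sigma factors of the plastid RNA polymerase, Pag.B19G000713.v3.1 had 4.95 ± 0.750 FPKM on day 6 and 5.84 ± 0.443 on day 9, against 52.9 ± 1.94 on day 0 (SD, n = 3 each). It fell by 3.19 on day 6 and by 2.98 on day 9 on the log2 scale (adjusted p = 1.01e-11 and 1.86e-11 in limma). Another rpoD gene, Pag.B13G000795.v3.1, had 3.29 ± 0.287 FPKM on day 3, 3.29 ± 0.293 on day 6 and 4.2 ± 0.275 on day 9, against 1.35 ± 0.131 on day 0 (SD, n = 3 each). It rose by 0.87 on day 3, by 0.87 on day 6 and by 1.15 on day 9 on the log2 scale (adjusted p = 4.52e-06, 1.30e-06 and 1.05e-07 in limma). On day 3 the largest fall of the list was that of the polA gene Pag.B01G004448.v3.1, with 4.02 ± 0.312 FPKM against 6.97 ± 0.0981 on day 0 (SD, n = 3 each; adjusted p = 3.24e-05 in limma).

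The list for single-stranded DNA binding and recombination had 28 genes, 17 of them tested. On day 3, 2 were called higher and 3 lower, on day 6, 2 were higher and 8 were lower, and on day 9, 2 were higher and 4 were lower. Of all genes tested, 22.6%, 29.2% and 30.9% were called higher on these days, and 25.2%, 47.6% and 46.0% lower. The median log2 change of the list was 0.10, -0.33 and -0.09 on days 3, 6 and 9, beside -0.01, -0.21 and -0.18 over all genes tested. Under median-ratio scaling it was -0.13 on day 6 and 0.10 on day 9. Over the 21 other settings it lay between -0.44 and -0.13 on day 6 and between -0.18 and 0.10 on day 9. The RPA3 gene Pag.A10G002538.v3.1, for a subunit of the nuclear single-strand binding complex, had 15.3 ± 1.43 FPKM on day 6 and 20.9 ± 2.24 on day 9, against 8.18 ± 0.200 on day 0 (SD, n = 3 each). It rose by 0.83 on day 6 and by 1.25 on day 9 (adjusted p = 8.29e-05 and 2.45e-06 in limma). The RECQL helicase gene Pag.B05G000225.v3.1 had 0.993 ± 0.0603 FPKM on day 3 and 0.320 ± 0.0265 on day 6, against 1.72 ± 0.106 on day 0 (SD, n = 3 each). It fell on both days, by 0.45 and 1.04 on the log2 scale. Without day 0, where it was highest, it would not have passed the filter. Its calls, which are among those counted as lower, are therefore a description of values near the floor. Among genes named recA, for the organelle recombinase, Pag.B01G004494.v3.1 fell to 5.12 ± 0.838 FPKM on day 9, against 11.6 ± 0.586 on day 0 (SD, n = 3 each; adjusted p = 9.94e-07 in limma). Pag.A18G000900.v3.1 had 3.71 ± 0.698 FPKM on day 3 against 2.49 ± 0.560 on day 0 (SD, n = 3 each; adjusted p = 0.0410 in limma), a call lost in 8 of 20 other settings.

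The telomere list had 6 genes, all tested, and these are 4 named MRE11 and 2 named RAD50. Its other names, among them TERT, POT1, KU70 and KU80, matched no gene as written, so the counts cover those 2 names only. On day 3, limma called 0, and 0 had an unadjusted p under 0.05, where 47.7% of all genes tested were called. On day 6 and again on day 9, 1 was higher and 2 were lower. Of all genes tested, 29.2% were called higher and 47.6% lower on day 6, and 30.9% and 46.0% on day 9. On both days the largest rise and the largest fall belonged to genes named MRE11, for a nuclease of double-strand break repair. The one that rose, Pag.A01G004523.v3.1, had 2.93 ± 0.112 FPKM on day 6 and 2.92 ± 0.10 on day 9, against 1.86 ± 0.263 on day 0 (SD, n = 3 each; adjusted p = 1.97e-04 and 2.10e-04 in limma). The one that fell, Pag.A01G004526.v3.1, had 2.02 ± 0.626 FPKM on day 6 and 2.30 ± 0.646 on day 9, against 5.61 ± 0.196 on day 0 (SD, n = 3 each; adjusted p = 5.27e-05 and 1.40e-04 in limma). The median log2 change of this list was -0.14 on day 6 and -0.15 on day 9, and it was 0.08 and 0.02 under median-ratio scaling.

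The list for defence and salicylic acid had 86 genes, 58 of them tested. On day 3, 22 were called higher and 15 lower, on day 6, 24 were higher and 21 were lower, and on day 9, 26 were higher and 25 were lower. Of all genes tested, 22.6%, 29.2% and 30.9% were called higher on these days, and 25.2%, 47.6% and 46.0% lower. The median log2 change of the list was 0.07, 0.17 and -0.00 on days 3, 6 and 9. Under median-ratio scaling it was 0.40 on day 6 and 0.19 on day 9, and relative to all genes tested it was 0.38 and 0.17 as deposited, against 0.39 and 0.19 under that scaling. With a filter at a mean of 5 FPKM it was -0.10 on day 9. Of 8 genes named WRKY33, a transcription factor of pathogen responses, 7 were tested. On each of days 3, 6 and 9, 6 of these were called higher, beside 22.6%, 29.2% and 30.9% of all genes tested, with medians of 0.60, 1.64 and 1.63. Of 24 genes named NPR1, a receptor of salicylic acid, 10 were tested. On day 3, 1 of these was called higher and 6 lower, on day 6, 1 was higher and 7 were lower, and on day 9, 0 were higher and 7 were lower. The shares of all genes tested called lower on these days were 25.2%, 47.6% and 46.0%. The TGA gene Pag.A02G001822.v3.1, for a partner of NPR1, had 52.7 ± 1.66 FPKM on day 3, 217 ± 5.13 on day 6 and 175 ± 4.43 on day 9, against 6.66 ± 0.346 on day 0 (SD, n = 3 each). It rose by 2.81, 4.83 and 4.52 on days 3, 6 and 9 on the log2 scale (adjusted p = 6.57e-13, 2.76e-15 and 4.55e-15 in limma). Another TGA gene, Pag.B04G001973.v3.1, fell to 0.883 ± 0.127 FPKM on day 6, against 5.77 ± 0.497 on day 0 (SD, n = 3 each; adjusted p = 5.55e-09 in limma). The PAL gene Pag.A06G001729.v3.1, for the entry enzyme of phenylpropanoid synthesis, fell to 59.9 ± 4.85 FPKM on day 9, against 213.8 ± 2.08 on day 0 (SD, n = 3 each; adjusted p = 1.76e-11 in limma).

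PR1 is the pathogenesis-related gene most used as a marker of salicylic acid. Of 5 PR1 genes, 4 were tested, and 1 of them was called higher on each day, and 3 were called lower on day 3 and 2 on each of days 6 and 9. Among all genes tested, 22.6%, 29.2% and 30.9% were called higher on days 3, 6 and 9, and 25.2%, 47.6% and 46.0% lower. Pag.B01G003044.v3.1, counted as lower on all 3 days, was listed at 0 in all 3 libraries of day 3, against 1.42 to 1.45 FPKM on day 0. It had at most 0.22 FPKM on day 6 and 0.79 on day 9. It thus passed the filter only through day 0, where it was highest, and its calls are a description of values near the floor. The lists cover few genes of some names and none of others, in part because names written as comma-joined aliases were not matched. With the aliases split, a reading added after the values were seen, the organelle list had 31 tested genes. Of these, 9 were called higher and 5 lower on day 3, then 1 and 21 on day 6, and 2 and 17 on day 9. The list for single-stranded DNA binding and recombination then had 34 tested genes. Of these, 6 were higher and 6 lower on day 3, then 5 and 14 on day 6, and 8 and 8 on day 9. The telomere list then had 12 tested genes, with 0 higher and 1 lower on day 3, then 1 and 5, and 2 and 5. The shares of all genes tested are those given above, and the counts of the defence list did not change.

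**Figure D5:**
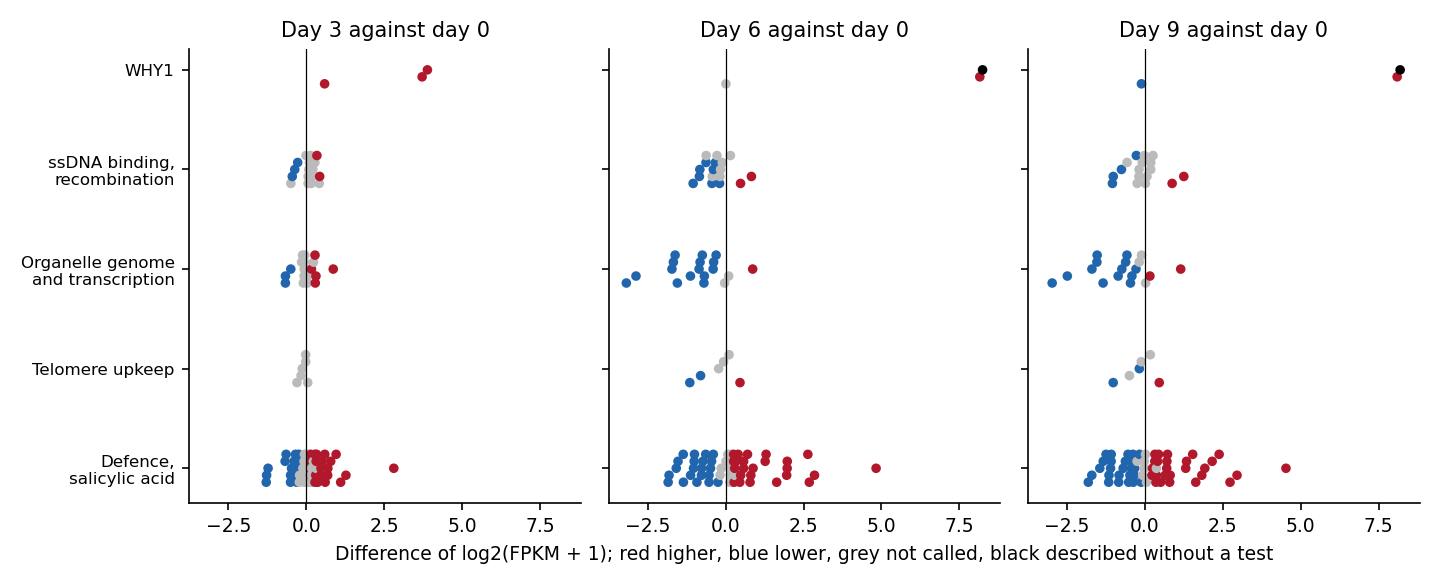
Log2 change against day 0 of each WHY1-named gene and each tested gene of the 4 lists on days 3, 6 and 9; red points were called higher, blue lower, grey not called, and black is the leading copy, given without a test. Most points of the organelle list lie below 0 on days 6 and 9, with medians of -0.78 and -0.60, and no listed gene reaches the 8.16 of Pag.A08G001025.v3.1 on day 6.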

How the data were processed

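The authors deposited FPKM values per gene model and library for 12 leaf libraries. The sources used here do not give the aligner, genome build or FPKM program, and depth is unknown. Values were used as deposited, as log2(FPKM + 1), for the 40736 models with at least 1 FPKM in at least 3 libraries. A model with 1 mean per day was fitted with limma 3.58.1 in R 4.3.3, with trend and robust moderation and Benjamini-Hochberg adjustment within each of 6 comparisons. The procedure was also run on simulated data with independent noise for each library. Those data hold no shift of all genes shared by the libraries of a day, and no statement here rests on that run. The replicate block was a fixed replicate term in the model. The installed version of statmod was 1.5.0. Summaries used pandas 2.3.3 and numpy 2.4.6 in Python 3.11.15, and plots used matplotlib 3.10.9.

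The members and the gene lists were chosen with earlier results of these data known. Lists matched KO names exactly after splitting at semicolons. Named genes are all WHY1-named genes, the 5 most abundant models of each day, the 5 models most like the leading copy with and without a KO name required, models numbered within 2 of it, and each list's called members with the largest rise and fall per day; the other WHIRLY-type models were added after values were seen. Alternatives were other pseudocounts, filters and scalings, variance settings, pairs of days alone, a replicate block and leaving out single libraries. Of the subset tables only membership was used.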

Additional observations from a re-analysis of the deposited data

Results flagged for a closer look

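Changes against day 0 were set against each other between days for the WHIRLY-type genes by the limma comparison of the later with the earlier day. The results below passed an adjusted p under 0.05. The days share their day 0 libraries, and groups of 3 libraries were not tested for a library that stands apart. The WHY1 copy Pag.A08G001025.v3.1 was higher on day 6 than on day 3 by a log2 change of 4.44 and on day 9 than on day 3 by 4.37. For this copy these comparisons are no separate support, since it follows the copy whose level on days 6 and 9 chose the name. The WHY1 copy Pag.B10G000854.v3.1 gave -0.58 and -0.70 in the same comparisons. The unnamed Pag.A10G001098.v3.1 gave 0.48 and 0.62. The unnamed Pag.A10G000017.v3.1 gave -0.26 between days 6 and 3, -0.45 between days 9 and 3 and -0.19 between days 9 and 6. The WHY2-named Pag.A03G001960.v3.1 gave -0.90 between days 6 and 3, -0.61 between days 9 and 3 and 0.29 between days 9 and 6; the last passed in 4 of 21 other settings. The WHY2-named Pag.B03G000695.v3.1 gave -0.67 between days 6 and 3 and -0.47 between days 9 and 3; the last passed in 15 of 21 other settings.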

How the results depend on the processing

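A tested change counted as the same if it kept its side of the threshold, and its direction unless neither fit passed. A change with no test counted as the same if it kept its direction and moved by less than the spread between libraries. For the 3 WHY1-named genes, 349 of 378 recomputed log2 changes counted as the same. Of the rest, 11 had no test and moved by more than the spread between libraries, 11 no longer passed, 5 came to pass and 2 changed sign. Pag.B10G000854.v3.1 on day 9 against day 0 gave 0.0933 under median-ratio scaling and 0.0120 after rescaling without the 20 most abundant models. Pag.A10G000017.v3.1 on day 6 against day 3 gave 0.00997 under median-ratio scaling. Of the 2 WHY1 copies tested on day 6 against day 0, 1 was called higher, and 2 were under median-ratio scaling and without the 20 most abundant models. The 1 was Pag.A08G001025.v3.1, whose test on that day is no separate support. Of all genes tested, 29.2% were called higher in that comparison, 11885 genes. There were 15744 under median-ratio scaling and 14085 without the 20 most abundant models. The count called lower on day 9 against day 0 was 1, beside 46.0% of all genes tested. It was 0 with no filter, under both rescalings, without trend and robust moderation, and with only the 2 days fitted, and 0 to 1 when leaving out single libraries. The count called lower by limma on day 9 against day 6 was 0, with 1 at an unadjusted p under 0.05, and it was 1 under both rescalings and 0 to 1 when leaving out single libraries. In that comparison 8.73% of all genes tested were called lower. Over the 4 lists, a mean of at least 5 FPKM left fewer genes tested and gave 15 higher on day 3, 17 higher and 20 lower on day 6, and 17 higher and 23 lower on day 9; median-ratio scaling gave 43 higher on day 6. The cause of the other changes was not tested.

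Replicate numbers did not pair the libraries: deviations of same-numbered libraries correlated between -0.0268 and 0.0381, and 2 of 12 libraries were closest to their own number. With the replicate block, 8916 genes were called higher and 9964 lower on day 3, against 9191 and 10255, and the counts of WHY1 genes called were as without it.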

Other observations

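Genes most like the chromosome 10 copy Pag.B10G000854.v3.1 were ranked in the same way as for the leading copy, a step added after values were seen. Of 23043 genes compared, 0 had r above 0.99. The highest with a KO name was Pag.A09G000138.v3.1, named gcpE or ispG, for an enzyme of the plastid pathway to isoprenoids. Its r was 0.987 over 12 libraries, and its means were 71.4, 121, 71.6 and 66.2 FPKM on days 0, 3, 6 and 9. Another model that carries this name beside that of an RNA methyltransferase, Pag.B09G000118.v3.1, was the fifth, with means of 78.6, 134, 81.2 and 73.0 FPKM. The potassium transporter gene Pag.A09G000727.v3.1, named kup, had 5.34, 21.1, 5.49 and 4.66 FPKM on those days, and the aldehyde dehydrogenase gene Pag.A01G004567.v3.1 had 33.7, 56.2, 33.3 and 30.7 FPKM.

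The genes named RHF whose numbers lie beside the WHIRLY-type models were looked at after values were seen. Pag.A08G001024.v3.1 had 2.81 ± 0.144 FPKM on day 6 and 4.28 ± 0.286 on day 9, against 1.04 ± 0.145 on day 0 (SD, n = 3 each). It rose by 0.90 and 1.38 on the log2 scale (adjusted p = 3.22e-06 and 7.22e-08 in limma). Pag.A10G001097.v3.1 had 5.15 ± 0.530 FPKM on day 3, 4.16 ± 0.353 on day 6 and 4.86 ± 0.140 on day 9, against 3.53 ± 0.153 on day 0 (SD, n = 3 each). It rose by 0.44, 0.19 and 0.37 on days 3, 6 and 9 on the log2 scale (adjusted p = 6.07e-04, 0.0449 and 8.72e-04 in limma). Pag.B10G000852.v3.1 had 4.44 ± 0.0551 FPKM on day 6 and 4.45 ± 0.595 on day 9, against 3.86 ± 0.106 on day 0 (SD, n = 3 each), and did not pass on either day (adjusted p = 0.187 and 0.198 in limma).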
